A study of Mus musculus with 6 samples.

Results

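Glycosyltransferases that build and cap the sugar chains of glycoproteins and glycolipids were examined in bone marrow progenitors of mice that report Hes1 transcription with green fluorescent protein (GFP). The set holds every gene whose symbol begins with St3gal, St6gal (which takes in St6galnac), St8sia, B3gnt, B3galt, B4galt, Fut, Galnt, Mgat or Gcnt followed by a digit or a lower-case letter. It contains 82 genes measured by 171 probe sets, out of 18193 genes and 45037 probe sets on the array. Of these, 81 encode enzymes or related proteins by name and 1, Fut4-ps1, is a pseudogene. The symbol rule uses no measured value, although the family was taken up with earlier results of these data known. Each gene is represented by the probe set with its highest mean on the 6 arrays, and other probe sets are described for some of the genes.

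The study compared 2 groups of 3 Affymetrix arrays each, made from GFP-positive and GFP-negative cells. Both groups came from male mice aged 6 weeks with the genotype Hes1 GFP/WT, so every sample carries the reporter on 1 Hes1 allele. The sorted cells were negative for lineage markers and Sca1 and positive for cKit, the phenotype of myeloerythroid progenitors, which is a mixed population. Nothing in the labels ties an array to an animal or a pool, so the p-values below speak of the scatter among these 6 samples alone, and that scatter may be technical.

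Sugar chains are assembled in the endoplasmic reticulum and Golgi by enzymes that each add 1 kind of sugar in 1 kind of linkage. Galnt enzymes start O-linked chains on serine and threonine, Mgat enzymes set the branches of N-linked chains, B3gnt and B4galt enzymes lengthen the arms, and sialyltransferases and fucosyltransferases cap them. In marrow, the caps form selectin ligands such as sialyl Lewis x, which leukocytes use to roll on vessel walls, and the chains on receptors such as Notch tune ligand binding.

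Values are log2 probe set intensities. A gene was called higher or lower when limma's Benjamini-Hochberg adjusted p over all 45037 probe sets was under 0.05. Hes1 read 5.74, 6.01 and 5.90 on the GFP-negative and 7.20, 7.12 and 7.13 on the GFP-positive arrays, in the direction of the labels. Kit lay between 11.13 and 11.53 on all arrays. The 3 measured progenitor markers, Kit, Cd34 and Slamf1, summed to 7258 to 8695 in intensity on GFP-negative and 4085 to 4597 on GFP-positive arrays, and Cd34 and Slamf1 were called lower. Among markers of other lineages, means lay below the array median for 1 of 9 of granulocytes and monocytes (Itgam). They did so for 5 of 10 of B and plasma cells and 8 of 10 of T and natural killer cells. Array medians were 59.9 to 64.8 in intensity. GFP-negative array 3 and GFP-positive array 1 stood apart in immunoglobulin genes: Jchain, the joining chain of plasma cells, read 8.85 and 8.65 there and 3.64 to 4.08 on the other 4 arrays. Counts are therefore also given without this pair.

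Marker genes of several cell types moved with the groups. The 6 markers of multipotent progenitors were all called lower, and their summed intensity was 8377 to 9254 on GFP-negative and 2170 to 2457 on GFP-positive arrays. Granulocyte and monocyte markers, 6 of 9 called lower, summed to 43630 to 49510 and 27770 to 31210. The other 3 of the 9 had a log2 difference above 0, up to 0.98, and were not called (median of the 9, -0.95). Erythroid markers, 5 of 8 called higher, summed to 18220 to 18610 and 26930 to 30560. The 10 B and plasma cell markers, 2 of them called lower, summed to 2835 to 3835 and 1141 to 1807. Such sums follow the brightest members, and 6 of these 10 had a log2 difference above 0 (median 0.17). The 10 T and natural killer cell markers, 2 of them called higher (Gzma and Gzmb), summed to 330.3 to 348 and 1163 to 1264. Megakaryocyte markers, 1 of 6 called higher, summed to 3933 to 4983 and 5572 to 6560, and stroma and endothelium markers, 2 of 8 called lower, to 576.6 to 662.7 and 394.4 to 566.8. Of these 8, 4 had a difference above 0 (median 0.07), and 7 had means below the array median. The part of these cell types in the results below was not tested. In sorted mixtures, fewer cells of a type and less RNA per cell cannot be told apart.

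Among the glycosyltransferases, falls outnumbered rises. Of 82 genes, 20 were lower in GFP-positive cells and 7 were higher, and 55 were not called. All 7 rises lay in the α2,3-sialyltransferases (4 genes), the α2,6-sialyltransferases (1) and the B3gnt enzymes (2). The 20 falls were spread over 8 of the 10 enzyme classes. The family's calls made up 32.9% of its genes, beside 18.1% of all 18193 genes. Lower calls made up 24.4% of the family and 9.92% of all genes, and higher calls 8.54% and 8.15%. The median log2 change was -0.01 over the family and 0.11 over all genes.

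Of the 20 genes called lower, 12 fell by at least 2-fold, and of the 7 called higher, St3gal6 alone rose by at least 2-fold. Over all genes, 1059 of 1805 lower calls (5.82% of genes tested) and 373 of 1482 higher calls reached 2-fold. Groups of arrays did not overlap for 32 family genes on the lower side and 17 on the higher side, beside 16.7% and 28.9% of all genes. Of 46 family genes with a mean above the array median, 4 were higher and 19 lower, so that 23 of 46 were called, beside 26.7% of the 10709 genes as bright (11.2% higher and 15.4% lower). Of 36 dimmer genes, 3 were higher (B3gnt4, B3gnt9 and St6galnac5) and 1 was lower (St8sia1), beside 5.77% called of all 7484 dimmer genes.

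Leaving out 1 array left 2 to 4 genes higher and 16 to 19 lower: dropping GFP-negative arrays 1, 2 and 3 in turn left 4, 3 and 2 genes higher, and dropping GFP-positive arrays 1, 2 and 3 left 4, 2 and 3. Of the 27 called genes, 18 kept their call whichever array was left out, 2 higher (St3gal5 and St3gal6) and 16 lower. Without both immunoglobulin arrays, 2 genes were higher and 15 lower, and 13 of these 15 were among the 20.

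**Figure D1:**
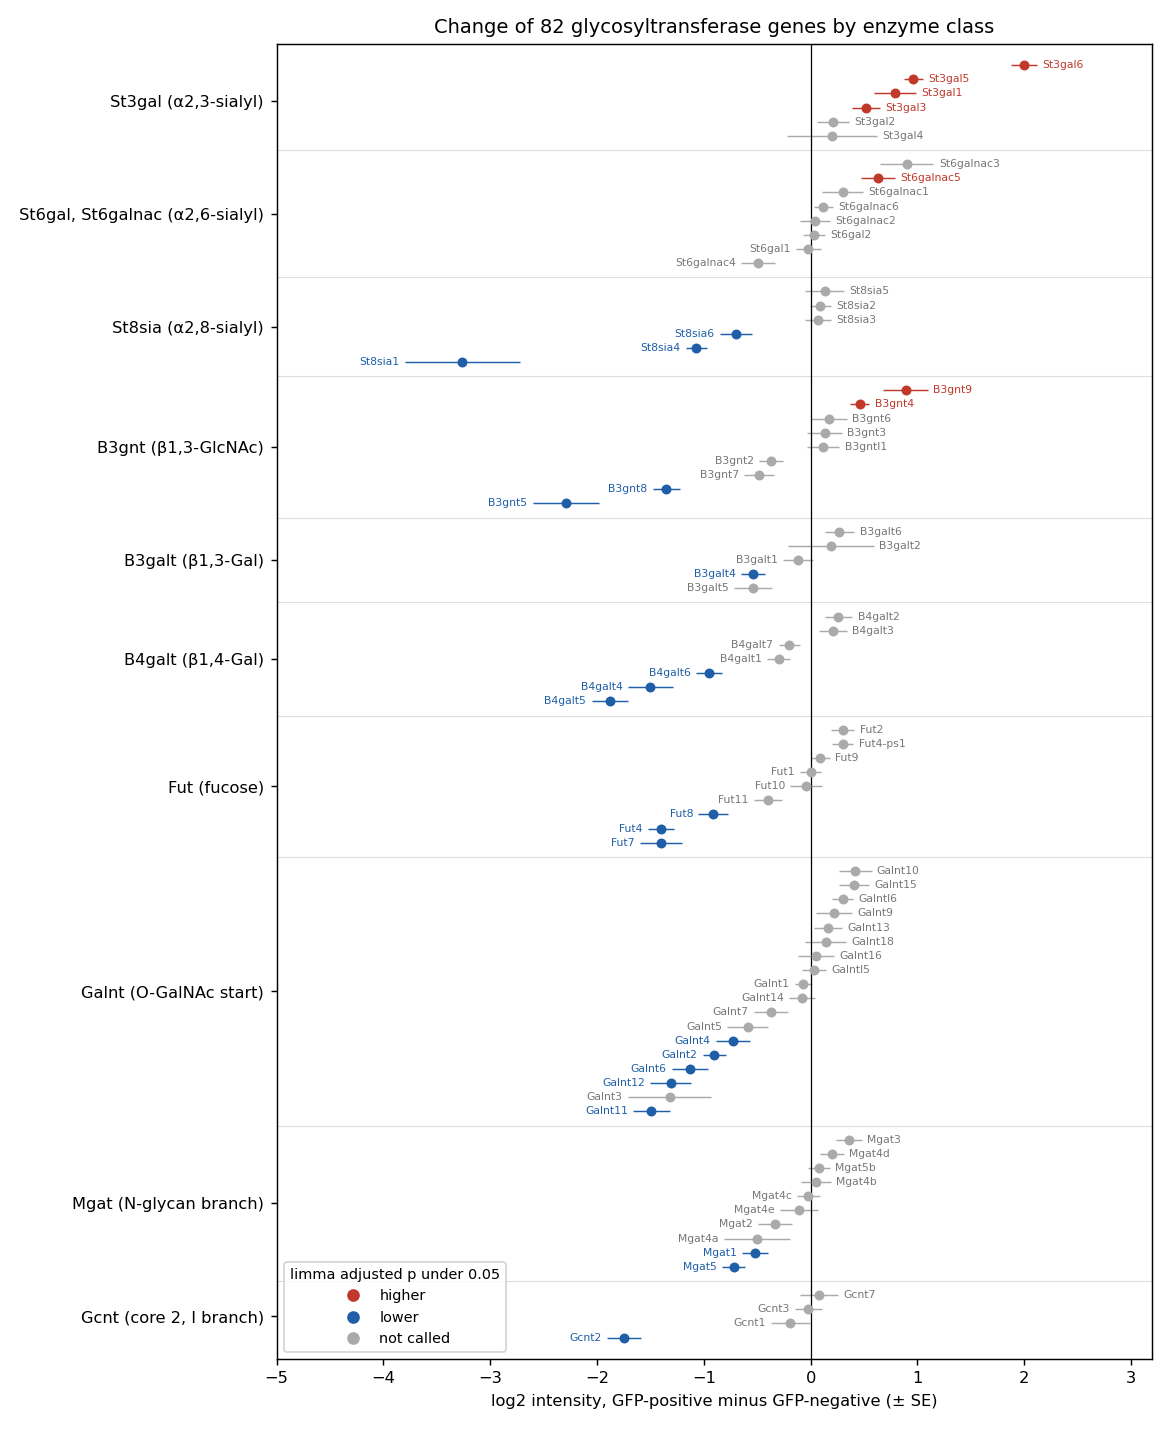
Difference in log2 intensity (GFP-positive minus GFP-negative, with limma's standard error) for each of the 82 genes, grouped by enzyme class on the vertical axis; red and blue mark limma calls and grey marks genes not called. The α2,3-sialyltransferases lie to the right of 0, with St3gal6 at 2.00, while the called genes of the α2,8-sialyl, galactosyl, fucosyl, Galnt, Mgat and Gcnt classes lie to the left, down to -3.26 for St8sia1.

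The 2 largest rises among called genes were of the sialyltransferases St3gal6 and St3gal5, and the 2 largest falls of St8sia1 and the glycolipid enzyme B3gnt5. Their promoters are printed because these 4 genes mark the extremes of the set. Each line gives 250 bases before the annotated start, 5′ to 3′ on the gene's strand, from RefSeq on GRCm38.p6. For St3gal6, with 2 listed starts, the upstream one is shown. Capitals mark matches on either strand to 4 motifs: AGATAA (known for factors such as GATA1), CCNCNCCC (Klf factors, where neighbouring matches overlap), GAGGAAGT (PU.1) and TGTGGGAA (RBPJ, the DNA-binding partner of Notch).
St3gal6, chr16:58524254-58524503, minus strand: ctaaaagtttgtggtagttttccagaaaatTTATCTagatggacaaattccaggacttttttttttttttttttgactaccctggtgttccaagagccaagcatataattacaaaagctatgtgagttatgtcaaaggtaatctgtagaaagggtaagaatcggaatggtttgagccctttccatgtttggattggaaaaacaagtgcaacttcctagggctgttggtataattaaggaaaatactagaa
St3gal5, chr6:72097358-72097607, plus strand: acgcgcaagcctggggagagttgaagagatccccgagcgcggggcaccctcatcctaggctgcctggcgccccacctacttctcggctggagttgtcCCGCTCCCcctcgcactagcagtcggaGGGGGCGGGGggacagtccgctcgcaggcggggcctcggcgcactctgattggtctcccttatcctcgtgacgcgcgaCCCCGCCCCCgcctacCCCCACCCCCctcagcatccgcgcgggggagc
St8sia1, chr6:142964453-142964702, minus strand: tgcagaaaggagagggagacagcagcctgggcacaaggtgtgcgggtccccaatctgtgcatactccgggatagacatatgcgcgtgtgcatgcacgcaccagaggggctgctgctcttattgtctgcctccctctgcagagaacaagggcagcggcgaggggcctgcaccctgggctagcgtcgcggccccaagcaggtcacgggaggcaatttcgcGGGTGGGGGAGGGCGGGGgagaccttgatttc
B3gnt5, chr16:19759984-19760233, plus strand: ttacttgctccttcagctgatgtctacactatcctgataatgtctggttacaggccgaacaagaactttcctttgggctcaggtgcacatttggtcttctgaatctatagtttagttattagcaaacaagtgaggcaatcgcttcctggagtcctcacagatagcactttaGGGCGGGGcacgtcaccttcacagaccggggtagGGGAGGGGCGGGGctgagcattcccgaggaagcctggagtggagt

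The St3gal6 window held 1 match to the GATA factor motif, starting 220 bases before the start, in sequence with 34.8% G and C. The window of the second St3gal6 start (chr16:58523427-58523676) held 0 such matches and 1 Klf match, with 64.4% G and C. The St3gal5 window held 7 Klf matches in sequence with 71.6% G and C, and the St8sia1 and B3gnt5 windows held 3 each. A match to the first of these stood in 9.99% of all 32851 promoter windows of this length, a Klf match in 45.9%, a PU.1 match in 2.44% and an RBPJ match in 1.46%. Windows were listed for 60 of the 82 genes. Among called genes, a Klf match stood in 4 of 5 windows of higher genes and 19 of 26 of lower genes, and in 28 of 54 windows of genes not called. A GATA match stood in 1 of 5, 2 of 26 and 6 of 54, a PU.1 match in 1 of 5, 0 of 26 and 2 of 54, and an RBPJ match in none of them. These are matches of letters only.

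Sialyltransferases that cap chains in α2,3 linkage were higher in GFP-positive cells. Of the 6 St3gal genes, 4 rose and 0 fell, and all 6 had a difference above 0, with a median of 0.66. The share called was 66.7%, beside 26.7% of all genes with a mean above the array median, where all 6 lie. Without both immunoglobulin arrays, 2 of the 6 were higher. St3gal6 caps lactosamine ends and takes part in selectin ligand synthesis. It read 9.18, 8.85 and 9.12 on GFP-negative arrays and 11.03, 11.03 and 11.11 on GFP-positive arrays. The GFP-positive values lay close together and far above the other group. The rise was 4.01-fold (log2 2.00, SE 0.12; limma adjusted p = 0.00108), and St3gal6 had the largest test statistic of the 82 genes.

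St3gal5 makes the ganglioside GM3, the parent of the a- and b-series gangliosides. Its values were 11.53, 11.44 and 11.36 against 12.37, 12.46 and 12.37, so the groups were narrow and apart. It rose 1.94-fold (SE 0.09 on the log2 scale; limma adjusted p = 0.00207). The calls of St3gal6 and St3gal5 held in every alternative tried, with adjusted p up to 0.0233 and 0.0345.

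The other rises in this class were smaller and near the threshold. St3gal1, which caps core 1 O-glycans, read 7.97, 7.80 and 7.24 against 8.35, 8.61 and 8.44 and rose 1.73-fold (limma adjusted p = 0.0484). Leaving out 1 array kept this call only without GFP-negative array 1, with adjusted p up to 0.132. St3gal3, which acts on lactosamine ends of glycoproteins, read 9.40, 9.26 and 9.19 against 9.77, 9.62 and 10.02. Its rise of 1.43-fold (limma adjusted p = 0.0490) was lost without any 1 of the 6 arrays, with adjusted p from 0.0549 to 0.148. Of the genes not called, St3gal4 varied within both groups, from 5.39 to 6.43 and from 5.48 to 6.72. St3gal2 had a log2 difference of 0.21 in its brightest probe set, and 1 of its 3 probe sets was called higher (0.65, adjusted p = 0.0123).

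Enzymes of α2,6 linkage were called no more often than genes at large. Of 8 genes, 1 rose and 0 fell, with a median of 0.08. That is 12.5% called, beside 18.1% of all genes, and 4 of the 8 had means below the array median, so no result about the class. St6galnac5, a ganglioside sialyltransferase best known from brain, read 4.73, 5.05 and 4.88 against 5.31, 5.81 and 5.44, all below the array median. The rise of 1.55-fold (limma adjusted p = 0.0486) was kept with 1 array left out only where that was GFP-positive array 1 (up to 0.133). St6galnac3, also a ganglioside enzyme, had a difference of 0.90 that did not pass (adjusted p = 0.0634), though 1 of its 3 probe sets was called higher (0.98, adjusted p = 0.0393). St6galnac6, the member of highest mean, differed by 0.12, and St6gal1, which caps N-glycans of B cells, was dim and differed by -0.02 (adjusted p = 0.413 and 0.937).

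The α2,8 class moved the other way, with 3 of 6 genes lower and 0 higher, and 1 lower without both immunoglobulin arrays. St8sia1, which turns GM3 into the ganglioside GD3, read 6.17, 8.26 and 7.98 on GFP-negative arrays and 4.03, 4.04 and 4.57 on GFP-positive arrays. GFP-negative array 1 lay well below its group and still above all GFP-positive arrays. The difference was -3.26 (SE 0.54; 9.55-fold lower; limma adjusted p = 0.0125), and without both immunoglobulin arrays the adjusted p was 0.119. Since the GFP-positive values are near the dim end of the range, the fold depends on array background.

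St8sia4, a polysialyltransferase, was bright and narrow: 12.56, 12.66 and 12.55 against 11.61, 11.42 and 11.54. It fell 2.10-fold (SE 0.10; limma adjusted p = 0.00169), in both of its probe sets. St8sia6, which adds a second sialic acid to O-glycans, read 8.62, 8.47 and 8.73 against 8.01, 7.61 and 8.08 and fell 1.63-fold (adjusted p = 0.0306), a call kept with 1 array left out only where that was GFP-positive array 3 (up to 0.104). The remaining 3 members, St8sia2, St8sia3 and St8sia5, had means below the array median and differed by 0.07 to 0.13.

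**Figure D2:**
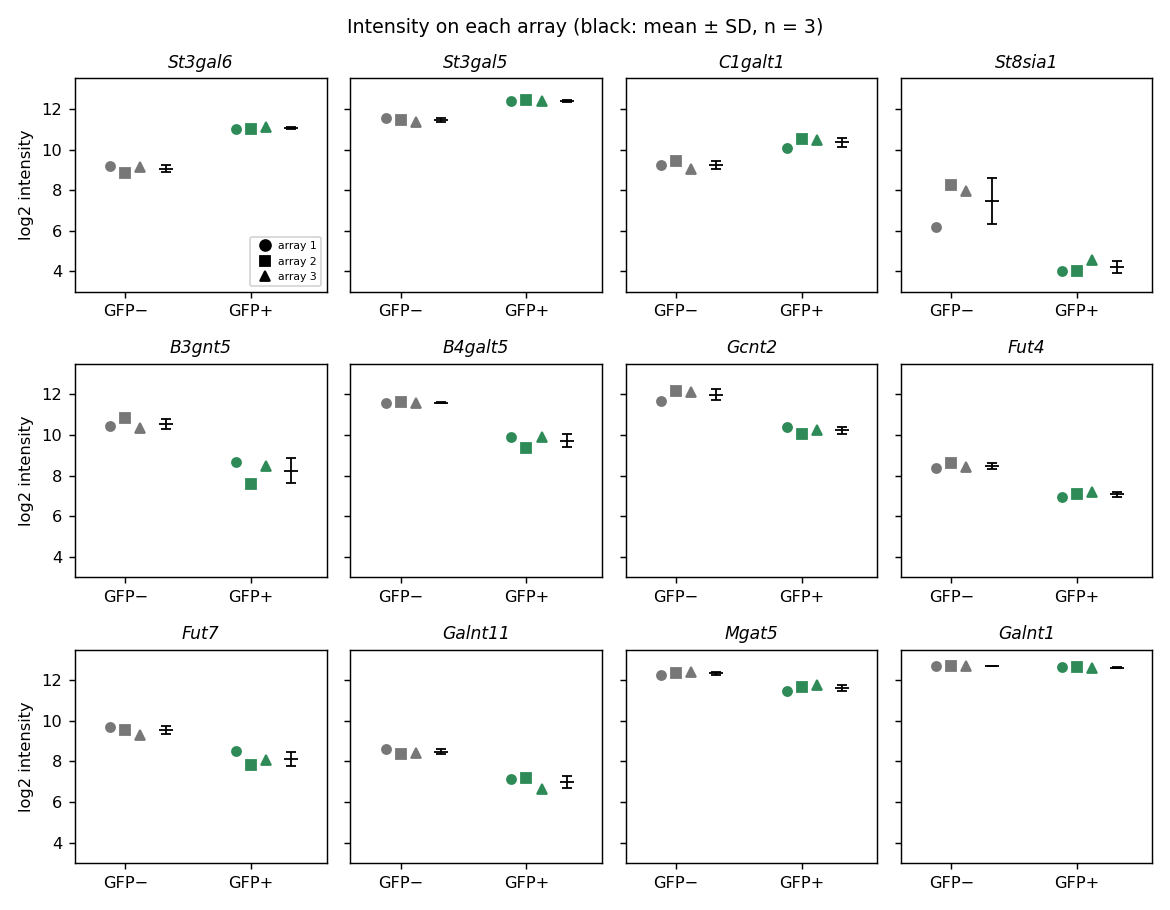
Log2 intensity on each array for 12 genes, with GFP-negative arrays in grey and GFP-positive arrays in green; symbols number the arrays within a group, and black marks show mean ± SD (n = 3). St3gal6, St3gal5 and C1galt1 are higher on every GFP-positive array, Galnt1 lies between 12.58 and 12.70 on all 6, and the other 8 genes are lower on every GFP-positive array.

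Read along the glycolipid route, calls went in both directions. Of 17 genes listed for gangliosides and other glycolipids, 4 were higher and 5 lower, and 4 in all were called without both immunoglobulin arrays. With all arrays 52.9% were called, beside 26.7% of all genes with a mean above the array median, where 11 of the 17 lie. Ugcg, which makes glucosylceramide, differed by 0.32 and did not pass (adjusted p = 0.0642). The lactosylceramide synthases B4galt5 and B4galt6 were both lower. B4galt5 read 11.59, 11.63 and 11.58 against 9.89, 9.35 and 9.93 and fell 3.67-fold (SE 0.17; limma adjusted p = 0.00177). B4galt6 read 11.45, 11.43 and 11.41 against 10.64, 10.28 and 10.51 and fell 1.94-fold (adjusted p = 0.00416), in 3 of its 4 probe sets. GFP-negative values of both genes lay close together, and the GFP-positive arrays were all lower.

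Enzymes that extend GM3 and GD3 went both ways. The later sialyltransferases St3gal1 and St6galnac5, described above, were called higher (0.79 and 0.63). St3gal2, St6galnac3 and St6galnac6 were not called (0.21, 0.90 and 0.12). Nor was St6galnac4, at -0.49 with groups that did not overlap (limma adjusted p = 0.0916) and at -0.02 in its other probe set. B4galnt1, which makes GM2 and GD2, is not a member of the symbol set. It read 10.89, 10.62 and 10.76 against 10.07, 9.85 and 9.69, 1.85-fold lower (limma adjusted p = 0.00908; 0.0548 for the mean of its probe sets). B3galt4, the next enzyme, which makes GM1, read 7.49, 7.20 and 7.23 against 6.79, 6.80 and 6.73. It was 1.45-fold lower (limma adjusted p = 0.0250), a call kept with 1 array left out only without GFP-negative array 1 (adjusted p up to 0.0789). A4galt, which makes globo-series glycolipids, was dim and 1.30-fold higher (adjusted p = 0.0451), a call lost without any 1 array (adjusted p up to 0.137).

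B3gnt5 opens the lacto-series of glycolipids. It read 10.44, 10.82 and 10.37 on GFP-negative arrays and 8.70, 7.57 and 8.49 on GFP-positive arrays. All GFP-positive arrays were lower, array 2 most of all. The fall was 4.89-fold (SE 0.31; limma adjusted p = 0.00597), and both probe sets were called. St8sia1 fell more, but the order of B3gnt5 and St8sia1 turned under other settings: with 50 added to the intensity they were at -2.11 and -1.78, and with the mean of a gene's probe sets at -2.11 and -1.17.

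**Figure D3:**
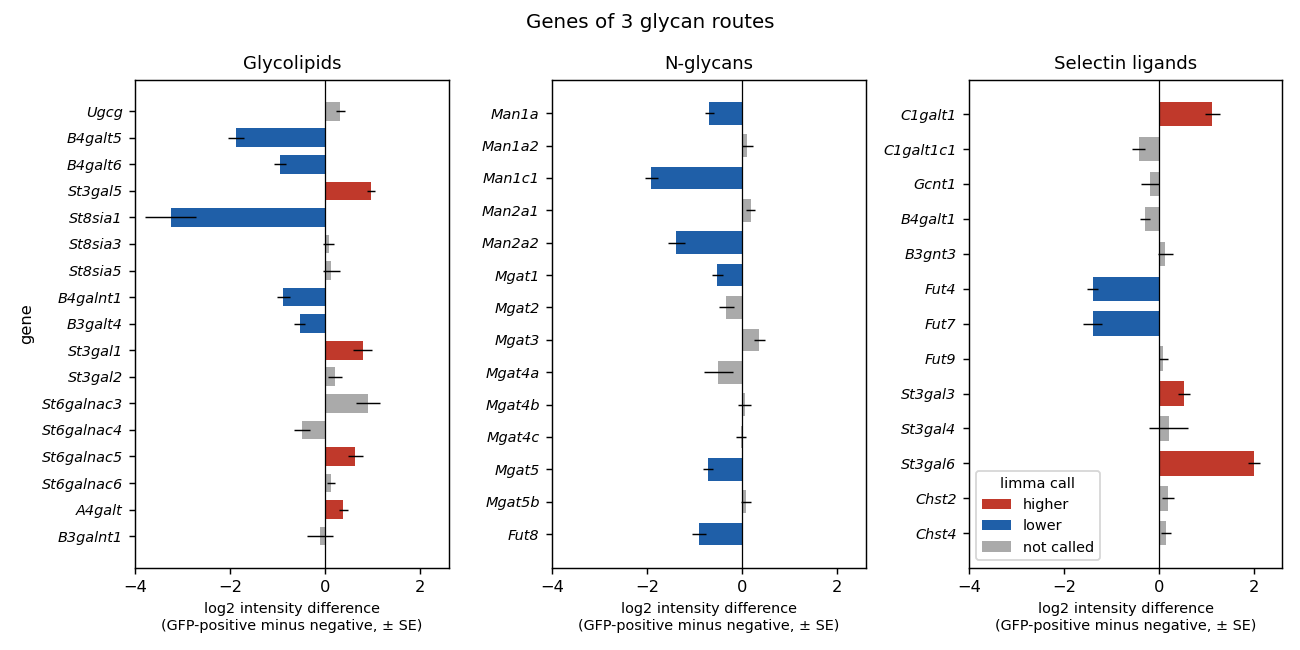
Difference in log2 intensity (GFP-positive minus GFP-negative, bars with limma's standard error) for listed genes of 3 routes; red and blue bars are limma calls, grey bars are not called. In the glycolipid panel St3gal5 rises to 0.96 between falling B4galt5, B4galt6 and St8sia1; in the N-glycan panel all 6 calls are lower; in the selectin ligand panel C1galt1, St3gal3 and St3gal6 are higher and Fut4 and Fut7 lower.

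Enzymes that lengthen lactosamine arms split by gene. Of 9 B3gnt genes, 2 rose and 2 fell. The share called was 44.4%, beside 18.1% of all genes, and 4 of the 9 had means below the array median. B3gnt8, which extends N-glycan arms together with B3gnt2, read 7.10, 7.20 and 7.07 against 5.92, 5.54 and 5.86 and fell 2.55-fold (limma adjusted p = 0.00190). B3gnt2, the member of highest mean and the main poly-lactosamine enzyme, read 12.22, 12.51 and 12.33 against 11.87, 12.01 and 12.07. Its groups did not overlap, but the difference of -0.37 did not pass (adjusted p = 0.0831).

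The 2 rises in this class were of dim probe sets. B3gnt4 read 5.50, 5.40 and 5.35 against 5.92, 5.87 and 5.84 (1.38-fold; limma adjusted p = 0.0208), and B3gnt9 read 4.02, 4.42 and 4.38 against 4.80, 5.51 and 5.19 (1.86-fold; adjusted p = 0.0366). With 1 array left out, B3gnt4 kept its call only without GFP-negative array 1 (adjusted p up to 0.0819) and B3gnt9 only where GFP-positive array 1 was dropped (up to 0.0960).

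Galactosyltransferases were lower where they were called. Of 7 B4galt genes, 3 fell and 0 rose. Calls made up 42.9%, beside 26.7% of all genes with a mean above the array median, where 6 of the 7 lie. Besides the lactosylceramide synthases, B4galt4 read 8.16, 8.08 and 8.14 against 7.10, 6.50 and 6.28 and fell 2.83-fold (SE 0.21; limma adjusted p = 0.00694). B4galt1, the main enzyme of glycoprotein lactosamine, read 11.99, 12.14 and 12.22 against 11.80, 11.73 and 11.93. It differed by -0.30 (adjusted p = 0.122). B4galt7, which builds the linkage of proteoglycans and had the highest class mean with B4galt1 close by, differed by -0.20 (adjusted p = 0.200). Of 5 B3galt genes, B3galt4 alone was called (20.0%, beside 18.1% of all genes). B3galt6, the brightest and another enzyme of the proteoglycan linkage, differed by 0.27 (adjusted p = 0.252).

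Branching enzymes of lactosamine and O-glycans were represented by 4 Gcnt genes, of which 1 fell (25.0%, beside 18.1% of all genes called). Gcnt2 forms the I antigen by branching linear poly-lactosamine, a change known from red cell maturation. It read 11.68, 12.16 and 12.12 on GFP-negative arrays and 10.41, 10.07 and 10.24 on GFP-positive arrays. Every GFP-positive array was more than 1 log2 unit below the lowest GFP-negative one, and the fall was 3.36-fold (SE 0.16; limma adjusted p = 0.00194). Gcnt1, which starts core 2 O-glycans, read 11.28, 11.42 and 11.49 against 10.83, 11.34 and 11.44, groups that overlapped (-0.19; adjusted p = 0.493). Gcnt3 and Gcnt7 were dim and differed by -0.02 and 0.08.

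Of 9 fucosyltransferase symbols, 3 were lower and 0 higher, with a median of -0.04. Calls made up 33.3%, beside 18.1% of all genes, and 4 of the 9 had means below the array median. Fut4 and Fut7 add the α1,3-fucose of Lewis x and sialyl Lewis x in myeloid cells. Fut4 read 8.39, 8.65 and 8.41 against 6.96, 7.10 and 7.18 and fell 2.64-fold (SE 0.12; limma adjusted p = 0.00145). Fut7 read 9.70, 9.55 and 9.31 against 8.50, 7.81 and 8.06 and fell 2.64-fold (SE 0.20; limma adjusted p = 0.00750). In both genes the lowest GFP-negative array stood above the highest GFP-positive array, and both calls held in every alternative (adjusted p up to 0.0273 and 0.0328).

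Fut8 adds the core fucose of N-glycans. It read 11.80, 11.69 and 11.63 against 11.06, 10.56 and 10.78 and fell 1.87-fold (SE 0.14; limma adjusted p = 0.0108). The other symbols were not called in their brightest probe set. Fut10 differed by -0.04 there (adjusted p = 0.890), while 1 of its 3 probe sets was called lower (-0.57, adjusted p = 0.0408). Fut1, Fut2 and Fut9 had means below the array median and differed by -0.00 to 0.30.

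The fucosyltransferases stand in the selectin ligand route with enzymes that moved the other way. Of 13 listed genes of sialyl Lewis x and selectin ligand synthesis, 3 were higher (C1galt1, St3gal3 and St3gal6) and 2 lower (Fut4 and Fut7). That is 38.5% called, beside 26.7% of all genes with a mean above the array median, where 9 of the 13 lie. C1galt1, which makes the core 1 O-glycan and lies outside the symbol set, read 9.25, 9.44 and 9.03 against 10.10, 10.52 and 10.46. It rose 2.18-fold (SE 0.16; limma adjusted p = 0.00755). Selplg, the PSGL-1 protein that carries selectin ligands, was named after its values were seen. It read 11.55, 11.53 and 11.57 against 10.48, 10.10 and 10.38 and fell 2.34-fold (adjusted p = 0.00218).

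Enzymes that start O-linked chains were the largest class, with 18 genes, 5 of them lower and 0 higher. That is 27.8% called, beside 18.1% of all genes. Galnt11, an enzyme reported to modify Notch1, read 8.60, 8.38 and 8.42 against 7.11, 7.19 and 6.63 and fell 2.80-fold (SE 0.17; limma adjusted p = 0.00341). Galnt12 read 7.11, 6.69 and 6.45 against 5.39, 5.32 and 5.61 and fell 2.48-fold (adjusted p = 0.00715). Galnt6 read 10.07, 9.97 and 10.34 against 9.21, 8.72 and 9.07 and fell 2.19-fold (adjusted p = 0.00803). In these genes no GFP-positive array reached the GFP-negative range.

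Galnt2, a broadly expressed starter, read 11.28, 11.28 and 11.33 against 10.45, 10.20 and 10.54 and fell 1.86-fold (limma adjusted p = 0.00493; 0.0613 without both immunoglobulin arrays). Galnt4 read 9.12, 8.82 and 9.21 against 8.20, 8.19 and 8.57 and fell 1.66-fold (adjusted p = 0.0302). With 1 array left out it was still called only where GFP-negative array 2 or GFP-positive array 3 was dropped (adjusted p up to 0.101). Galnt1, the brightest member and also broadly expressed, read 12.68, 12.67 and 12.70 against 12.63, 12.62 and 12.58, a difference of -0.07 (adjusted p = 0.588) that was 0.01 with array medians subtracted.

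Galnt3 had a difference of -1.32 but a wide spread, from 6.60 to 7.71 and from 5.25 to 6.41, and did not pass (adjusted p = 0.0717). Galnt10 differed by 0.42 (adjusted p = 0.113), and 1 of its 3 probe sets was called higher (0.60, adjusted p = 0.0289). Of the 18 genes, 9 had means below the array median, and none of those 9 was called.

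Of 10 Mgat genes, which branch N-glycans, 2 fell and 0 rose, and 0 were called without both immunoglobulin arrays. The 2 calls make up 20.0%, near the 18.1% of all genes, and so no result about the class. Mgat5 adds the β1,6 branch that carries long lactosamine arms. It read 12.26, 12.37 and 12.40 against 11.47, 11.64 and 11.75 and fell 1.65-fold (SE 0.11; limma adjusted p = 0.00833; 0.0752 without both immunoglobulin arrays). Mgat1 opens the path to hybrid and complex chains. It read 9.86, 10.09 and 9.87 against 9.57, 9.40 and 9.28 and fell 1.44-fold (adjusted p = 0.0357), a call kept with 1 array left out only where that was GFP-positive array 1 (up to 0.109). Mgat2, which adds the next branch, differed by -0.33 (adjusted p = 0.218). Mgat4a varied in GFP-positive arrays, from 7.70 to 8.90, and differed by -0.50 (adjusted p = 0.315).

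Mannosidases prepare chains for these branches. Of 14 genes listed for N-glycan trimming and branching, 6 were lower and 0 higher, and 3 were called without both immunoglobulin arrays. The 6 make up 42.9%, beside 26.7% called of all genes with a mean above the array median, where 11 of the 14 lie. The Golgi mannosidase Man1c1 read 11.60, 11.64 and 11.54 against 9.73, 9.41 and 9.90 and fell 3.76-fold (SE 0.14; limma adjusted p = 0.00120). Man2a2, a later mannosidase, fell 2.63-fold and Man1a 1.61-fold (adjusted p = 0.00488 and 0.00748; 0.0541 for Man1a without both immunoglobulin arrays). The remaining 3 falls were Mgat1, Mgat5 and Fut8. The isoenzymes Man1a2 and Man2a1 were not called.

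**Figure D4:**
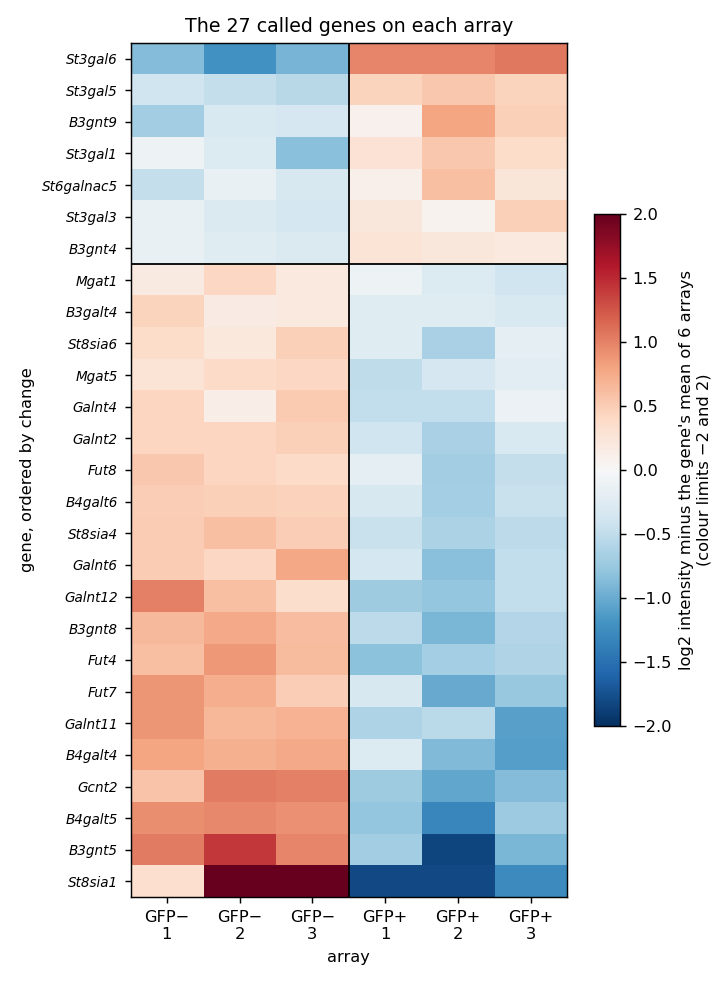
Log2 intensity of the 27 called genes on each array, as the difference from the gene's mean over 6 arrays (red above, blue below, colours limited at -2 and 2); genes are ordered by change. The 7 rises stand above the line and the 20 falls below it, and St8sia1 in the bottom row shows the spread of the GFP-negative arrays.

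Members of a class that act on different chains or share a step are set side by side here by their log2 difference. The lactosylceramide synthases B4galt5 and B4galt6, which share a step, were at -1.88 and -0.95, and B4galt1, of glycoprotein chains, at -0.30. Among starters, Galnt11 was at -1.49 and Galnt1 at -0.07. For N-acetylglucosamine, B3gnt5 was at -2.29 and B3gnt2 at -0.37, and among branching enzymes Gcnt2 was at -1.75 and Gcnt1 at -0.19. These are chosen members, and others lay elsewhere: B4galt4 at -1.50, Galnt2 at -0.90, B3gnt8 at -1.35 and B3gnt9 at 0.89. A difference above 0 was seen in 2 of 7 B4galt, 8 of 18 Galnt, 5 of 9 B3gnt and 1 of 4 Gcnt genes. Differences between members were not tested.

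Several probe sets were available for 53 of the 82 genes, and 19 called genes were among them. In 3 of these 19 (St3gal5, St8sia4 and B3gnt5) every probe set was called the same way, and in no gene were probe sets called in opposite directions. The 3 genes with the largest test statistics were followed in every probe set. St3gal6 was called higher in 2 of 5, at 2.00 and 2.13, with the dimmer others at 0.66, 0.47 and -0.03. Fut4 was called lower in 1 of 2, at -1.40, with the other at 0.26. St8sia4 was called lower in both, at -1.07 and -1.75. Gcnt2 was called lower in 4 of 8, from -0.69 to -1.75. B4galt5 and St8sia1 rested on 1 called probe set each, of 2 and of 3. The dimmer probe set of B4galt5 was at 0.24, with groups that did not overlap, and those of St8sia1 at -0.47 and 0.21. Galnt4 was called in 1 of 3, with the others at -0.47 and 0.31, and Fut8 in 1 of 3, with the others at -1.15 and 0.14. St3gal3 was called in 1 of 2, with the other at 0.16.

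**Figure D5:**
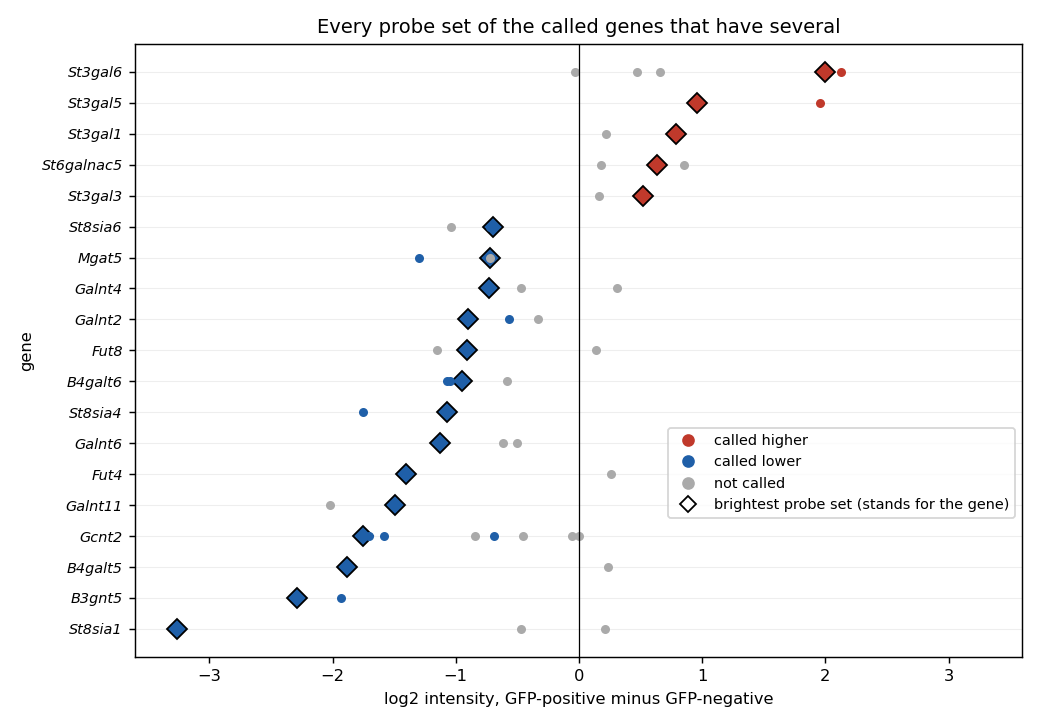
Difference in log2 intensity (GFP-positive minus GFP-negative) of every probe set for the 19 called genes that have several; diamonds mark the brightest probe set, and colours mark limma calls. Probe sets of 1 gene that were called lie on the same side of 0, and the probe sets of Fut4, B4galt5 and St8sia1 that were not called lie between -0.47 and 0.26.

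Genes that supply and remove sugars were examined for the same comparison. Of 23 measured genes of sugar nucleotide synthesis, 4 rose and 3 fell. That is 30.4% called, near the 26.7% of all genes with a mean above the array median, where 22 of the 23 lie. Uap1l1, related to the UDP-GlcNAc synthesis enzyme Uap1, fell 3.04-fold, and Galk2, which phosphorylates GalNAc, fell 2.28-fold. Pmm1, a phosphomannomutase, rose 2.19-fold (limma adjusted p = 0.00487, 0.0234 and 0.00375). With 1 array left out Galk2 was still called only where GFP-positive array 1 or 2 was dropped (adjusted p up to 0.0717), and without both immunoglobulin arrays the adjusted p of Pmm1 was 0.0572. Gne, the first enzyme of sialic acid synthesis, named after its values were seen, rose 1.49-fold (limma adjusted p = 0.0323). Dropping 1 array kept that call only when it was GFP-negative array 1 (adjusted p up to 0.0993).

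Of 11 sugar nucleotide transporters of the Slc35 family, 2 rose and 1 fell. That is 27.3% called, beside 26.7% of all genes with a mean above the array median, where all 11 lie, and so no result about the transporters. Slc35b4 fell 1.74-fold, and Slc35d1 and Slc35a4 rose 1.53-fold and 1.34-fold (limma adjusted p = 0.00404, 0.0319 and 0.0430). With 1 array left out, Slc35d1 kept its call only without GFP-negative array 3 (adjusted p up to 0.104; 0.925 for the mean of its probe sets) and Slc35a4 only where GFP-positive array 3 was dropped (up to 0.128). Without both immunoglobulin arrays no transporter was called, and the adjusted p of Slc35b4 was 0.0529. Slc35a1, the CMP-sialic acid transporter, differed by -0.07 (adjusted p = 0.795).

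Of 16 glycosidases, which remove sugars mostly in lysosomes, 5 fell and 1 rose. That is 37.5% called, beside 26.7% of all genes with a mean above the array median, where 15 of the 16 lie. Hexa, a hexosaminidase that degrades the ganglioside GM2, fell 2.48-fold, the mannosidase Man2b1 2.33-fold and Glb1l, related to beta-galactosidase, 1.72-fold (limma adjusted p = 0.00338, 0.00251 and 0.0143). Without both immunoglobulin arrays the adjusted p of Glb1l was 0.0862, and 3 glycosidases were called.

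Proteins that carry or read the chains were mostly lower where called. Of 13 sialomucins and other carriers, 4 fell and 1 rose. That is 38.5% called, beside 26.7% of all genes with a mean above the array median, where 12 of the 13 lie. Emcn (endomucin) fell 5.67-fold, the sialomucin Cd34 2.59-fold and Ptprc (CD45) 2.43-fold (limma adjusted p = 0.000937, 0.00251 and 0.00236). Emcn read 3.94 to 4.19 on GFP-positive arrays, at the dim end of the range, so its fold depends on array background, and with 50 added to the intensity its log2 difference was -1.12. Of 18 selectins, galectins and Siglecs, 7 fell and 2 rose. The calls took in 9 of the 18, beside 18.1% of all genes, and 8 of the 18 had means below the array median. The sialic acid-binding receptors Siglece, Siglecf and Siglecg fell 3.40-fold, 2.86-fold and 2.65-fold (adjusted p = 0.0191, 0.0140 and 0.0431). With 1 array left out, Siglece was still called only where GFP-negative array 3 or GFP-positive array 1 was dropped (adjusted p up to 0.0681), and Siglecg only where it was GFP-positive array 1 (up to 0.125). Siglecf was not called where GFP-negative array 2 or 3 was dropped (up to 0.0551), nor without both immunoglobulin arrays (0.116). Several of these proteins mark the myeloid and multipotent cells whose markers are given above, and the part of those cells was not tested.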

How the data were processed

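Amplification before hybridisation started from 5 ng of RNA, per the labels. The authors deposited linear probe set intensity, and RMA is the method in the submitters' processing notes; its version and settings are not given here. Detection calls were not used.

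Intensities were put on the log2 scale and normalized no further. From 45101 probe sets, 64 controls were dropped. Symbols are those of the platform annotation, with 34945 of the tested probe sets naming 1 gene, 932 several and 9160 none. Each of the 82 family genes was found in RefSeq (GRCm38.p6) under an unchanged symbol. Groups were tested 2-sided in limma 3.58.1 (R 4.3.3; lmFit and eBayes, no covariate), adjusting by Benjamini-Hochberg over 45037 probe sets. The number of arrays limits the precision. The fit was also run on simulated data of independent normal noise with added changes. Those data hold no effect shared across an array, so the calls draw no support from them. Tables and figures were made in Python 3.11.15 with pandas 2.3.3 and matplotlib 3.10.9.

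Named genes were all called family genes, the member of highest mean in each class, genes with another called probe set, and up to 3 called members of each further list. Galnt3, Mgat2, Mgat4a, St3gal4, St6gal1, St6galnac4, B4galt1, Ugcg, Slc35a1, Selplg, Gne and the uncalled dim members were named after their values were seen. The members and lists were chosen with earlier results of these data known. Alternatives stand in the closing section. Arrays were treated as unpaired.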

Additional observations from a re-analysis of the deposited data

How the results depend on the processing

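Alternatives were the replicate block, an intensity trend with robust prior, quantile normalization, array medians subtracted, log2 of intensity plus 50, only the brighter probe sets, the mean of a gene's probe sets, leaving out each array and, added after the data were seen, leaving out both immunoglobulin arrays. No called family gene changed sign. Among named family genes that were not called, the sign changed for Fut10 (-0.26 to 0.14), Gcnt1 (-0.31 to 0.13) and Galnt1 (-0.08 to 0.01). Further, 15 of the 27 called genes kept their call in every alternative that measured them. The count of higher genes was 4 with log2 of intensity plus 50, 2 without both immunoglobulin arrays and 2 to 4 with 1 array left out. The count of lower genes ran from 15 to 25. Over the 5 further lists, 30 of 81 genes were called, 19 with the replicate block, 14 without both immunoglobulin arrays and 14 to 24 with 1 array left out.

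With array medians subtracted, 60.8% of the calls over all genes were higher in place of 45.1%, and 10 family genes were higher and 20 lower. With the replicate number as a block, 5 family genes were higher and 18 lower. Deviations of same-numbered arrays correlated at 0.0299, 0.0834 and 0.0433, each array correlating best with its own number, a hint from the data and not the design. Dim probe sets limit what can be seen: 36 of the 82 genes had means below the array median.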
